A study of Mus musculus with 2 samples.

Results

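Gata1 to Gata6 are the 6 mouse genes of the GATA family of zinc finger transcription factors, and they were taken here as all probe sets whose platform gene symbol is exactly one of these names. The rule found 11 probe sets for 6 of the 18193 genes named on the array. The study profiled A2lox.Mesp1 embryonic stem cells of the 129/Ola background, a line that carries a Mesp1 gene inducible by doxycycline (dox). In the dox sample, cells differentiated as embryoid bodies received 250 ng/mL of dox from day 2 until day 4. In the no dox sample the same line was left untreated. Both samples were sorted on day 5 for cells with Flk1 and Tie2 on their surface, an endothelial gate, and each was put on 1 Affymetrix array. The line and the sort were thus common to both samples, and no line without the inducible gene was among the samples used here. Neither condition was replicated, so no test or p-value is given and each difference below is between these 2 samples only.

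GATA factors bind DNA at the letters GATA through a pair of zinc fingers and act with partners such as the FOG proteins. They are known as a blood set (Gata1, Gata2 and Gata3) and a heart and endoderm set (Gata4, Gata5 and Gata6). Gata1 drives red cells and megakaryocytes, and Gata2 maintains blood progenitors and is active in endothelium. Gata3 is known from T cells, sympathetic neurons and trophoblast. Gata4 and Gata6 act in early heart and in extraembryonic endoderm, and Gata5 acts in endocardium, the endothelial lining of the heart. Mesp1, a basic helix-loop-helix factor of early mesoderm, belongs to a protein class that binds E-boxes.

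The promoters of the members at opposite ends of the ranking that had an entry in the RefSeq promoter table (build GRCm38.p6) are shown first, since Gata5 was higher and Gata1 lower with dox. Each run holds the 250 bases before the gene's start, read 5′ to 3′ on the gene's strand, with E-boxes (CANNTG, which reads alike on both strands) in capitals.
Gata5 (chr2:180334680-180334929, minus strand): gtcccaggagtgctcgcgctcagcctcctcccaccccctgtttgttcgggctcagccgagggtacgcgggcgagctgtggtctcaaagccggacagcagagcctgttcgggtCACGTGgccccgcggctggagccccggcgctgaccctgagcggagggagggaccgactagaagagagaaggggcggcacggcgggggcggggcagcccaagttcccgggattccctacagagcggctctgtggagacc
Gata1 (chrX:7967911-7968160, minus strand): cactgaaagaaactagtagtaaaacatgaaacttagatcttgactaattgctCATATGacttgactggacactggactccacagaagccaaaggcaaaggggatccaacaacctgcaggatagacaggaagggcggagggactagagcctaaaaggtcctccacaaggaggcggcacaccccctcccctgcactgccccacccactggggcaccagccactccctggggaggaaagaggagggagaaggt

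Gata5 held 1 E-box, CACGTG, whose first base lay 138 bases before the start. Gata1 held 1 E-box, CATATG, at 198 bases before the start. The single Gata3 entry and the 2 entries of Gata2 held none in this window. Of 32851 promoter entries of the same length, 66.2% held at least 1 E-box. The letters GATAA, sought on both strands, were in none of the 5 GATA entries and in 22.6% of all entries. The windows of Gata5 and Gata3 were each 70% G or C, those of Gata2 were 67.2% and 74%, and that of Gata1 was 54%, beside a median of 52.4% over all entries. These matches describe letters only. Gata4 and Gata6 had no entry.

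The values are linear signals in arbitrary units, as deposited, with a lowest value of 1. Differences are dox minus no dox on the log2(signal + 16) scale, which understates changes of dim probe sets, and folds were calculated back from that scale. Signals of different probe sets cannot be ranked against each other as amounts of RNA, so each probe set was compared only with itself. The brightest probe set stood for its gene, and a gene was kept when its signal reached the median of either array, 127 with dox or 112 without (the signal filter). Size was judged by a fixed threshold of 2-fold, a log2 difference of 1.

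By their brightest probe sets 3 of the 6 members, Gata4, Gata5 and Gata6, were 2-fold or more higher with dox, no member was as much lower, and Gata1, Gata2 and Gata3 lay within 2-fold. Over all 11794 genes past the filter, 5.69% were 2-fold or more higher and 2.06% were 2-fold or more lower. Past 8-fold were Gata4 and Gata5, beside 0.746% of all genes. Those 2 reached the filter on the dox array alone, so they had to differ to some degree. Of the 420 genes that passed in that way 60.5% were 2-fold or more higher and 14.8% were 8-fold or more higher. The median log2 difference was 1.14 over the 6 members, against 0.05 over all genes past the filter. In bulk RNA of a sorted fraction, more cells that express a gene and more RNA per cell cannot be told apart.

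**Figure D1:**
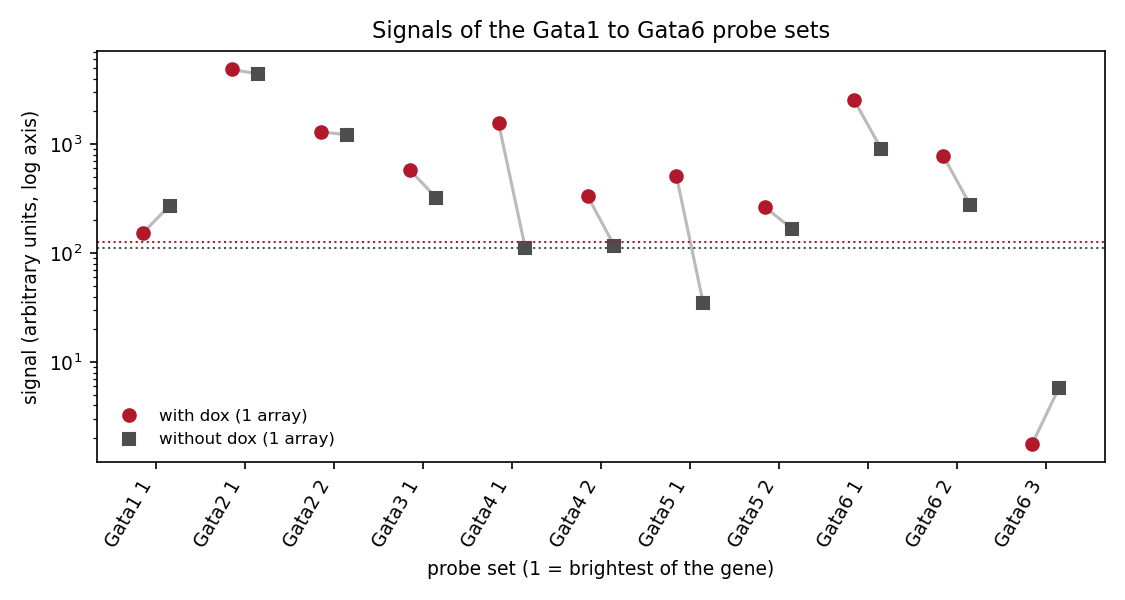
Signal of each of the 11 GATA probe sets (log axis, arbitrary units) on the array with dox (red circles) and the array without dox (grey squares), with probe sets of a gene numbered by mean brightness. Dotted lines mark the array medians, 127 with dox and 112 without. The first probe set of Gata4 and of Gata5 is above the line with dox and below it without.

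Gata4, a factor of early heart formation, had the largest difference of the family by the brightest probe sets. That probe set (1418863_at) gave 1557.5 with dox and 111.64 without, a 12.3-fold difference (log2 difference 3.62). A difference as high was seen in 0.382% of genes past the filter. Gata4 reached the filter on the dox array alone, and of the 420 such genes 14.8% were 8-fold or more higher. The value without dox fell just short of that array's median of 112.16. The other probe set (1418864_at) gave 334.76 with dox and 117.4 without, a 2.63-fold difference (log2 difference 1.39). Both probe sets are annotated to the same transcript record, both were past 2-fold, and without dox both were close to the array median. Their differences lay 2.23 log2 units apart. Among 3019 genes with exactly 2 probe sets past the filter the median gap was 0.24, and 0.795% had a gap as wide.

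Gata5, a factor known from endocardium and heart, was higher on both of its probe sets, and they disagreed more. The brightest (1450126_at) gave 506.57 with dox and 34.97 without, a 10.3-fold difference (log2 difference 3.36), and 0.534% of genes past the filter were as high. The other (1450125_at) gave 262.7 with dox and 167.28 without, 1.52-fold (log2 difference 0.60), which is within 2-fold. The gap of 2.75 log2 units was matched or exceeded by 0.331% of genes with 2 such probe sets. By signal alone, without the added 16, the ratio of dox over no dox was 14.5 for the brightest Gata5 probe set and 14.0 for the brightest Gata4 probe set. Which of these genes came first therefore depended on the pseudocount. The size for Gata5 rests on a probe set that was dim without dox. That probe set reached the filter on the dox array alone, and of the 420 such genes 14.8% were 8-fold or more higher.

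Gata6, which acts beside Gata4 in heart and endoderm, had a smaller difference on which its bright probe sets were alike. The brightest (1425464_at) gave 2519.96 with dox and 911.76 without, 2.73-fold (log2 difference 1.45), and 3.28% of genes past the filter were as high. The second (1425463_at) gave 779.16 with dox and 279.05 without, a log2 difference of 1.43. The gap between them was 0.02, and 95.2% of genes with 2 such probe sets had one at least as wide. Both passed the filter on both arrays, so the call does not rest on a value near the floor. The third (1443081_at) gave 1.78 with dox and 5.79 without and stayed below the filter on both arrays, close to the floor of 1, where a difference (here -0.29) carries little information. With that probe set averaged in, the log2 difference of Gata6 was 0.86, within 2-fold.

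Gata3 was somewhat higher with dox and did not reach the threshold. Its only probe set (1448886_at) gave 582.26 with dox and 321.78 without, 1.77-fold (log2 difference 0.82). Both signals were past the array medians. A difference as high was seen in 7.38% of genes past the filter. No further probe set was there to compare it with.

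Gata2, the member known from both endothelium and blood progenitors, was nearly even. Its brightest probe set (1450333_a_at) gave 4854.93 with dox and 4423.69 without, a log2 difference of 0.13. The other (1428816_a_at) gave 1301.81 with dox and 1219.76 without, a log2 difference of 0.09. The gap of 0.04 between them was smaller than in most genes, 90.1% of those with 2 probe sets past the filter having one at least as wide. As many as 40.1% of genes past the filter had a difference at least as high. Its sign changed when the arrays were scaled to the same median, to -0.05.

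Gata1, the erythroid and megakaryocyte factor, was the one member that was lower with dox, by less than 2-fold. Its only probe set (1449232_at) gave 152.97 with dox and 273.33 without, 1.71-fold lower (log2 difference -0.78). Both signals were past the array medians, the one with dox by little. A difference as low was seen in 4.03% of genes past the filter. Under the 8 alternatives that gave it a value the difference ran from -0.95 to -0.64, never past 2-fold.

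**Figure D2:**
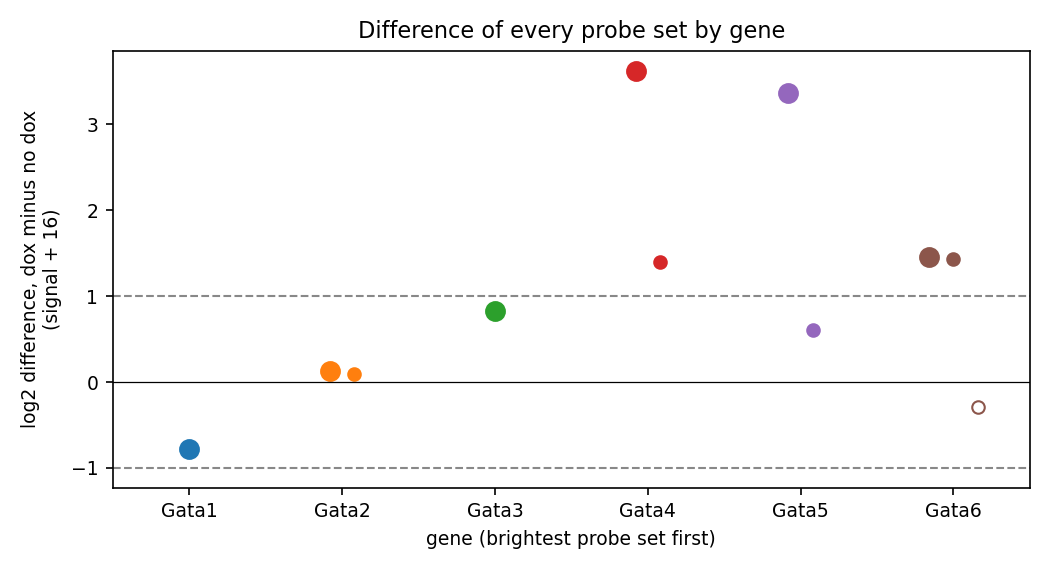
Log2 difference, dox minus no dox, of every GATA probe set (log2(signal + 16) scale), by gene, with the brightest as the large circle and the probe set below the signal filter open. Dashed lines mark 2-fold. The 2 probe sets of Gata2 and the 2 filled ones of Gata6 nearly coincide, while those of Gata4 (3.62 and 1.39) and of Gata5 (3.36 and 0.60) lie far apart.

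Without replicates, how far probe sets of 1 gene disagree is the sole measure of error, and it covers probe noise but not cultures. The pooled SD within genes was 0.38 log2 units over 5173 genes, being 0.48 where the mean signal was below 500 and 0.26 where it was 500 or more. In the order of the brightest probe sets, Gata4 and Gata5 differed by 0.27, less than that SD. Gata5 exceeded Gata6 by 1.91, Gata6 exceeded Gata3 by 0.63, Gata3 exceeded Gata2 by 0.69 and Gata2 exceeded Gata1 by 0.91. The pooled SD is that of a single probe set, whereas a gap between 2 genes carries the noise of both. The gaps of 0.63, 0.69 and 0.91 are therefore not clearly beyond probe noise. By the dimmer probe sets past the filter the order was another one, with Gata6 at 1.43, Gata4 at 1.39 and Gata5 at 0.60. Gata6 exceeded Gata2 by 1.32, and each of these genes had 2 probe sets that were nearly alike. Over the 10 probe sets past the filter 5 were higher by 2-fold or more and 0 were lower by as much, beside 5.59% and 2.12% of 20451 named probe sets past the filter.

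Set out by the known subfamilies, Gata4, Gata5 and Gata6 had a mean log2 difference of 2.81, against 0.06 for Gata1, Gata2 and Gata3. Every brightest value of the first 3 exceeded that of Gata3, the highest of the others. On the level of probe sets they overlapped, since the second Gata5 probe set (0.60) lay below Gata3 (0.82). The subfamilies hold 3 genes each and come from a single pair of arrays, so no test was made.

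**Figure D3:**
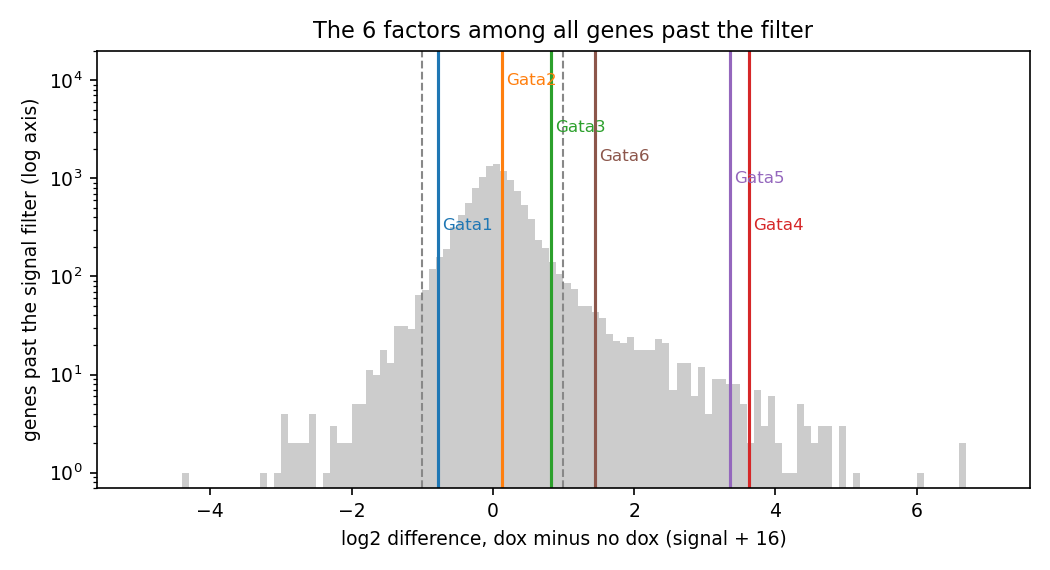
Histogram of the log2 difference, dox minus no dox, of the 11794 genes past the signal filter (count on a log axis), each by its brightest probe set, with coloured lines at the 6 GATA genes and dashed lines at 2-fold. Gata4 (3.62) and Gata5 (3.36) lie in the far upper tail, Gata6 (1.45) beyond the upper dashed line, and Gata3, Gata2 and Gata1 between the dashed lines.

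The nearest measured protein-coding genes, 2 on each side of every member in the RefSeq order, were also read, a look chosen after the members' values were seen. Of the 24 neighbours 1 was higher by 2-fold or more, 0 were lower by as much, 15 lay within 2-fold and 8 were below the filter. Over all genes past the filter 5.69% were higher and 2.06% were lower by as much. The higher neighbour was Ctsb, a lysosomal protease gene near Gata4, at 9218 with dox and 4557 without (log2 difference 1.01). Fdft1, which lies between Ctsb and Gata4, had a log2 difference of -0.49, and Blk, on the far side of Gata4, one of 0.28. Beside Gata6, Mib1 differed by 0.04 and Cables1 by 0.50. Gata5os, the noncoding gene that overlaps Gata5, gave 54.4 with dox and 75.6 without, below the filter on both arrays, where no direction is drawn.

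The induced gene and the gate were checked once. Mesp1 gave 10977 with dox and 2433 without (log2 difference 2.17) on a probe set whose target, transgene or endogenous gene, is not known here. Kdr, which encodes Flk1, and Tek, which encodes Tie2, each differed by 0.08, and 10 of 12 endothelial markers lay within 2-fold (Eng was 2.40-fold higher and Cd34 2.45-fold lower), with a summed signal of 55813 with dox and 55742 without. Some markers of other cells differed beside the GATA genes. Over all genes past the filter 5.69% were higher and 2.06% were lower by 2-fold or more. Among genes that reached the filter on the dox array alone 60.5% were 2-fold or more higher. Of 7 cardiomyocyte markers past the filter 6 were higher by 2-fold or more (Tnnt2, Tnni1, Myh7, Actc1, Myl4 and Myl7) and 0 were lower. Of the 7, Myh7, Myl4 and Myl7 reached the filter on the dox array alone. The filter on both arrays dropped only those 3 from the 7, and 3 were higher there. Over all 12 the signals summed to 7858 with dox and 2196 without. Of 13 smooth muscle and mesenchyme markers 9 were higher (Acta2, Tagln, Cnn1, Col1a1, Col3a1, Lum, Postn, Pdgfra and Pdgfrb) and 0 were lower. Of the 13, Tagln, Cnn1, Col1a1 and Lum reached the filter on the dox array alone. The filter on both arrays dropped only those 4 from the 13, and 5 were higher there. Over all 14 the signals summed to 42378 with dox and 6217 without. Of 8 blood cell markers 3 were lower (Laptm5, Mpo and Hbb-bh1), 5 lay within 2-fold and 0 were higher, and the 11 measured summed to 9692 with dox and 16989 without. Of 6 endoderm markers 0 were past 2-fold, the largest differences being 0.71 for Amn and -0.18 for Apoa1. Their 10 signals summed to 11499.8 with dox and 10969 without, mostly through Sox17, which endothelium also expresses, and the other 9 to 1489 with dox and 1537 without. These sums add probe sets of unequal response and serve only to set 1 array beside the other. No marker of these 5 lists was at the floor on either array except Cnn1, a smooth muscle gene, at 1 without dox. Ptprc, the pan-leukocyte gene, was near it, at 1.80 with dox and 15.9 without. The part of any such cells in the GATA differences was not tested.

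By their brightest probe sets the cofactors of GATA proteins lay within 2-fold, but some of their other probe sets did not. Zfpm1 (FOG1), the partner of GATA1, gave 2755 with dox and 2299 without (log2 difference 0.26), and its other probe set went the other way, at -0.37. Zfpm2 (FOG2), the partner of GATA4 in the heart, gave 2017 with dox and 1120 without (0.84), and 0.11 by its other probe set. Of 8 relatives with a GATA-type finger past the filter, and of 8 general coactivators, none was past 2-fold by its brightest probe set. The largest were Rere (0.57, and 1.61 by another probe set), Trps1 (-0.32, and up to 0.45), Crebbp (0.35, with a range of -0.88 to 0.57) and Med1 (0.33, and up to 2.24). Gatad2b, named after its values were seen, had -0.13 by its brightest probe set and reached 2.52 by another. The medians of these lists were -0.09 and 0.13, against 0.05 over all genes.

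The listed genes around the blood members were read beside Gata1 at -0.78 and Gata2 at 0.13. Over all genes past the filter 2.06% were lower and 5.69% were higher by 2-fold or more. Of 15 partners of the blood GATA complexes 2 were lower and 1 was higher by 2-fold or more, with a list median of -0.29. Gfi1b, a zinc finger repressor of the red cell and platelet lineages, was 3.96-fold lower and Nfe2, a megakaryocyte factor, 2.22-fold lower, while the LIM-only factor Lmo4 was 2.18-fold higher. The lower count was 1 with a pseudocount of 64 or the filter on both arrays, 0 with that at the 75th percentile and 4 by the mean of all probe sets. Of 9 red cell and platelet genes linked to GATA1 that were past the filter 3 were lower and none was higher. These were the embryonic globins Hbb-bh1 (5.99-fold lower) and Hba-x (2.01-fold lower) and the red cell membrane gene Epb42 (2.63-fold lower). Gfi1b, Hba-x and Epb42 reached the filter on the no dox array alone, and with the filter on both arrays 1 gene of the red cell and platelet list was lower. That list's median was -0.74, and -0.28 over its 15 measured genes without the filter. In the same sample 3 of 8 blood cell markers were lower, and their part was not tested. Hbb-bh1 is among the lower genes of both the red cell and platelet list and the blood cell markers.

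Genes linked to GATA2 in endothelium and progenitors split in both directions. Of 15 past the filter 5 were 2-fold or more higher and 2 were lower, beside 5.69% and 2.06% of all genes past the filter. The list median was -0.03. Higher were Foxc2, a forkhead factor of vessels (3.60-fold), Edn1, the endothelin precursor (3.35-fold), Vwf, von Willebrand factor (2.82-fold), Angpt2, a Tie2 ligand (2.26-fold), and Nrp1, a VEGF coreceptor (2.10-fold), whose probe sets ranged from -0.18 to 1.54. Lower were Cd34 (2.45-fold) and the stem cell factor receptor Kit (2.44-fold). Without probe sets whose names end in _a_at, _s_at or _x_at, 4 were higher and 1 was lower, with a median of 0.45. By the mean of all probe sets 3 were higher. Of 9 genes of tissues known for Gata3 past the filter, the keratins Krt8 (5.35-fold) and Krt18 (3.53-fold) were higher and the caudal factor Cdx2 was 7.71-fold lower, with a list median of 0.19. Cdx2 reached the filter on the no dox array alone, and with the filter on both arrays 0 were lower and the median was 0.72.

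Around the heart members, 4 of 11 partners and 9 of 12 linked heart genes past the filter were higher by 2-fold or more, beside Gata4 (3.62), Gata5 (3.36) and Gata6 (1.45). Over all genes past the filter 5.69% were higher and 2.06% were lower by as much. Among the cardiac partners 1 was lower and 6 lay within 2-fold, with a median of 0.72. Higher were the T-box factor Tbx20 (21.7-fold), the cardiac and smooth muscle coactivator Myocd (251 with dox and 1.94 without), the heart factor Hand2 (7.79-fold) and the chromatin subunit Smarcd3 (6.49-fold). Myocd reached the filter on the dox array alone, so it had to differ to some degree. Isl1, a factor of the second heart field, was 2.64-fold lower, but within 2-fold by its other probe set (log2 difference -0.69). Nkx2-5, a cardiac homeobox partner of GATA4 named after its value was seen, had a log2 difference of 0.89. Of the 20 listed heart genes linked to GATA4, GATA5 or GATA6 a further 8 were below the filter, and 0 were lower past it. The higher ones were the contractile genes Myl4 (14.7-fold), Tnnt2 (10.8-fold), Myh7 (6.50-fold), Myl7 (5.06-fold) and Actc1 (2.61-fold), the natriuretic peptide receptor Npr3 (8.67-fold), Edn1, the BMP inhibitor Smad6 (3.19-fold) and the helix-loop-helix inhibitor Id2 (2.35-fold). The median of the 12 was 1.71, and 1.07 over all 20 listed genes without the filter. Of the 12, 4 reached the filter on the dox array alone. Among all 420 genes that passed in that way 60.5% were 2-fold or more higher. The filter on both arrays dropped only those 4 from the 12, and 5 were higher there. In the same sample 6 of 7 cardiomyocyte and 9 of 13 mesenchyme markers were higher, and their part was not tested. Tnnt2, Myh7, Actc1, Myl4 and Myl7 are in both the heart list and the cardiomyocyte list, so these counts share genes. Edn1 is also in the list linked to GATA2.

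The endoderm genes linked to Gata4 and Gata6 were close to even. Of 14 past the filter 1, Lama1, a laminin chain of basement membrane, was 2-fold or more higher (751 with dox and 280 without, 2.59-fold) and none was lower. The list median was 0.01. All endoderm markers summed above except Epcam are also in this list, so the 2 lists are not separate observations. Among factors upstream of Gata genes 2 of 13 were higher and 1 was lower, beside 5.69% and 2.06% of all genes past the filter. The median of that list was 0.25. Bmp4, a growth factor that acts upstream of several Gata genes in mesoderm, was 4.63-fold higher (3398 with dox and 720 without). The other was Mesp1, the gene that dox induces in this line, so it adds no separate observation. Etv2, an ETS factor of blood and endothelium, was 2.94-fold lower. Bmpr2, named after its values were seen, had 0.61 by its brightest probe set and 2.27 by another past the filter. All these lists were drawn from general knowledge, and whether a GATA factor acts on a listed gene in these cells was not measured.

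**Figure D4:**
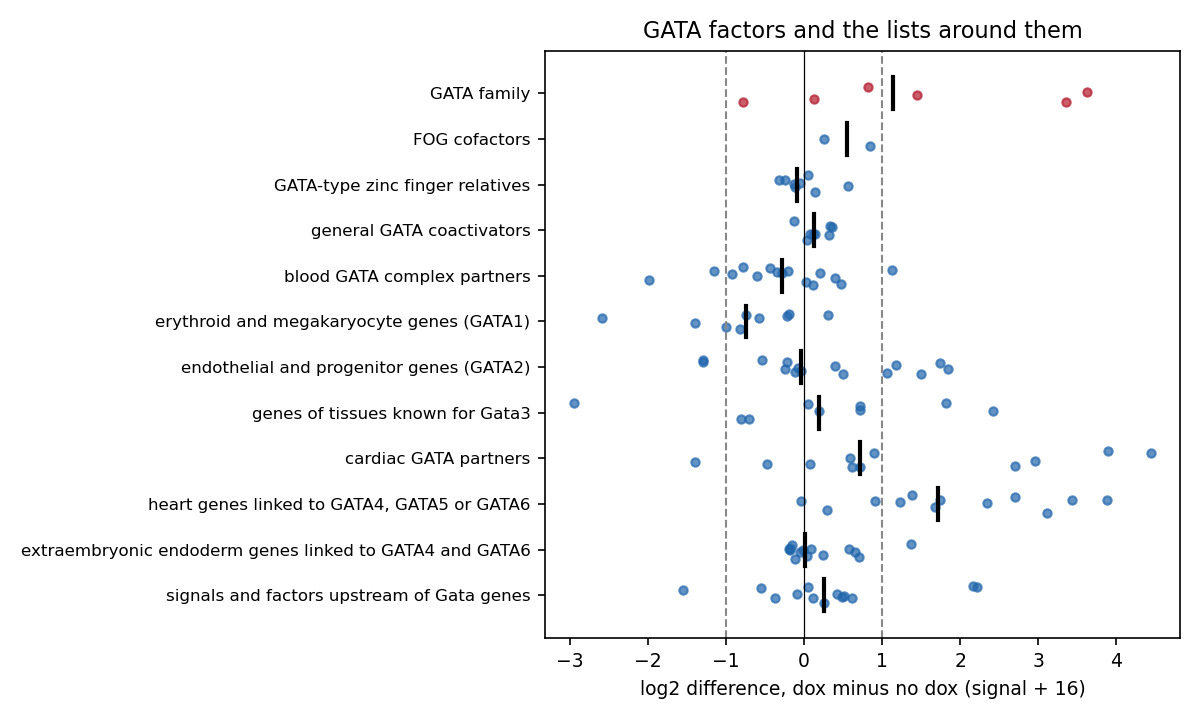
Log2 difference, dox minus no dox, of each gene past the signal filter (dots, brightest probe set) in the GATA family (red) and in 11 lists around it (blue), with list medians as black bars and dashed lines at 2-fold. The heart genes (median 1.71) and the GATA family (1.14) lie farthest to the right, and the erythroid and megakaryocyte genes (-0.74) farthest to the left.

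**Figure D5:**
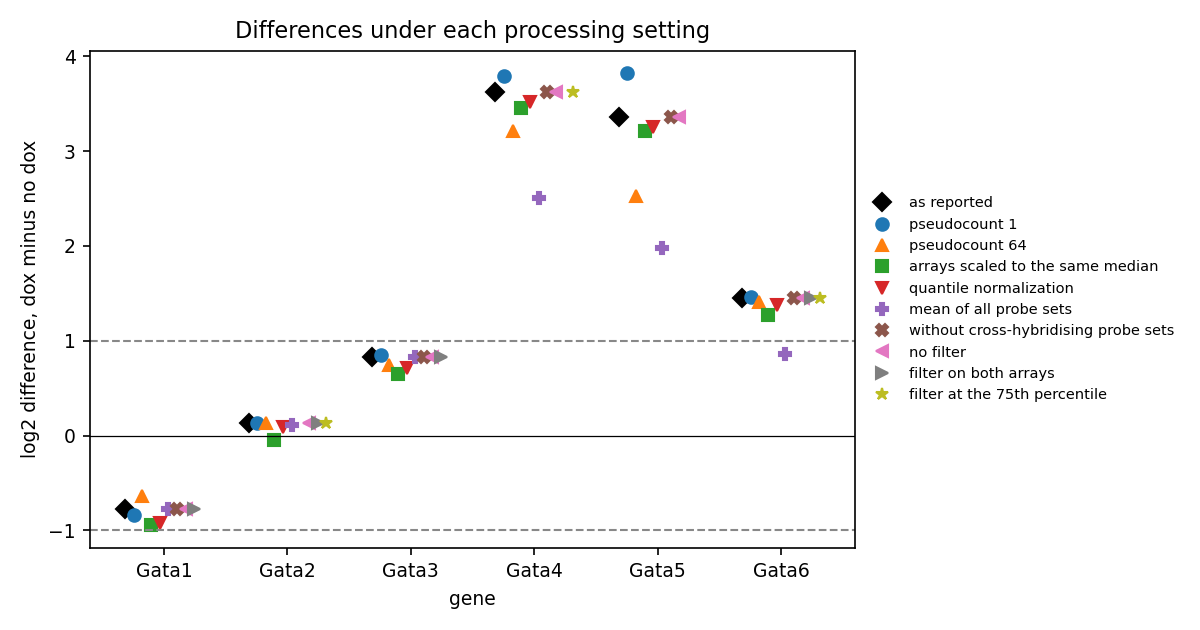
Log2 difference, dox minus no dox, of each GATA gene as reported (black diamonds) and under 9 other processing settings, with dashed lines at 2-fold. Gata4 stays between 2.51 and 3.79 and Gata5 between 1.98 and 3.82 wherever they had a value, and Gata6 falls within 2-fold only for the mean of all probe sets (0.86).

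The plot of settings shows what the processing did to the 6 genes. Gata4 and Gata5 were past 2-fold under every setting that gave them a value. The filter on both arrays removed both, and the filter at the 75th percentile removed Gata5, Gata3 and Gata1. Gata3 ran from 0.65 to 0.85 and Gata2 from -0.05 to 0.13.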

How the data were processed

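RNA from 2 samples was hybridised as biotin-labelled material made from 100 ng of total RNA each, per the labels' protocols. The table the authors deposited gives a linear intensity for each of 45037 probe sets on both arrays. The sources used here do not say how these were summarised or scaled. Scanner files and detection calls were not used here, so signal over background is unknown and the number of arrays limits the precision. Names came from the platform annotation: 34945 probe sets had 1 symbol, 932 had several and 9160 had none listed, and RefSeq held the Entrez number of 34741 and changed no symbol. No build is named for the array, so coordinates are given only for RefSeq promoters.

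The pseudocount was 16, the filter the median of either array, and the brightest probe set stood for its gene. With 1 array per group no test was possible. Work was done in Python 3.11.15 with pandas 2.3.3 and NumPy 2.4.6, and the procedure was tested on simulated data. Named were all members, Mesp1, Kdr, Tek, the FOG genes, and from 19 further lists (239 entries) the genes past 2-fold, or the 2 largest where none was. The members and the lists were chosen with earlier results of these data known. By the brightest probe sets no pluripotency (median -0.14), neural (-0.82, over 2 genes) or housekeeping gene (-0.05) past the filter was past 2-fold. Nes reached -1.62 by its other probe set past the filter. With arrays scaled to the same median, or with quantile normalization, 1 neural gene was lower past 2-fold. The largest differences were those of Utf1 (-0.80) and Dppa5a (0.24), Nes (-0.97) and Pax6 (-0.67), and Tfrc (-0.69) and Gusb (0.61).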

Additional observations from a re-analysis of the deposited data

How the results depend on the processing

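No paired analysis was possible because each condition has 1 array. A value was taken as moved when it changed by more than the pooled SD between probe sets (0.38). With a pseudocount of 1 Gata5 was 3.82, and with one of 64 Gata4 was 3.21 and Gata5 2.53. By the mean of all probe sets Gata4 was 2.51, Gata5 1.98 and Gata6 0.86, the last no longer past 2-fold. The count of lower genes (243) was 402 with arrays scaled to the same median, 372 without a filter and 135 with the filter at the 75th percentile. The count of higher genes (671) was 417 with the filter on both arrays and 350 with that at the 75th percentile. The share of higher among all genes past 2-fold was 73.4% as reported and 56.8% with arrays scaled to the same median, which put the median gene at -0.13. Under that scaling Gata4, Gata5 and Gata6 were still past 2-fold. No difference of a member past 2-fold changed sign. The setting labelled as without cross-hybridising probe sets dropped every probe set whose name ends in _a_at, _s_at or _x_at. Both Gata2 probe sets end in _a_at, so Gata2 had no value there. Of the blood partners, 0 were higher with arrays scaled to the same median or without probe sets of those suffixes. Their lower count ran from 0 to 4. The red cell and platelet list had 1 lower gene and the heart list 5 higher genes with either stricter filter. Dim probe sets, chiefly those of Gata4 and Gata5 without dox, limit the size of any fold.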
